A study of Mus musculus with 4 samples.

Results

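The genes described here carry the symbols of RNA-binding protein families best known for the choice of splice sites: the SR proteins (Srsf), the heterogeneous nuclear ribonucleoproteins or hnRNPs (Hnrnp), the SF3 and U2AF factors, and the Ptbp, Mbnl, Celf, Esrp and numbered Rbm proteins. They were taken by symbol alone from RefSeq GRCm38, which gave 96 of 21900 protein-coding genes: 11 Srsf, 21 Hnrnp, 12 Sf3 and U2af, 3 Ptbp, 3 Mbnl, 6 Celf, 2 Esrp and 38 Rbm genes. The list is called splicing regulators for short, although some members, above all among the Rbm genes, are known for other steps of RNA metabolism. H3K79me2 was profiled in them by chromatin immunoprecipitation and sequencing in bone marrow-derived dendritic cells (BMDCs), antigen-presenting cells grown from the marrow of C57BL/6J mice. The PBS library came from BMDCs given PBS, for a time the labels do not state, and the lysine library from BMDCs given 18 mM lysine for 6 h. No genetic change is named for either culture. For each condition there was 1 library of H3K79me2 and 1 of input. The inputs were not analysed here, so whether they also gather reads at the places described was not tested. With 1 library per condition no difference could be set against a replicate spread and no test was made. The labels do not say how many mice or cultures stand behind a library.

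SR proteins bind enhancer sequences in exons and recruit the splicing machinery, while many hnRNPs coat nascent RNA and can silence exons. U2AF marks the polypyrimidine tract and the AG at the end of an intron, and the SF3A and SF3B complexes then anchor the U2 small nuclear ribonucleoprotein on the branch point. Ptbp, Mbnl, Celf, Esrp and many Rbm proteins bind short motifs near exons and shift their use between tissues. H3K79me2, made by the methyltransferase Dot1l, is known as a mark of transcribed genes, typically from the start site into the first part of the gene body.

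The peak lists held 11926 peaks in PBS and 9805 in lysine, without read counts, so the depth of the libraries is unknown. Of 14 marker genes of dendritic cells, 8 carried a PBS peak and 5 a lysine peak (7677 and 4213 bp covered in all), and Batf3, Ccr7, Irf4, Csf2rb, H2-Aa and Spi1 had none in either library. Markers of macrophages and monocytes carried a peak in 5 and 1 of 7 genes (2234 and 1160 bp). Neutrophil markers had a peak in 1 and 0 of 5 genes, and stromal and endothelial markers in 1 and 1 of 4. None of the 5 T and NK cell, 5 B cell, 6 neuronal and 4 erythroid markers had a peak in either library. A change of the mark in each cell and a change in the mix of cells cannot be told apart in a bulk culture, and the part of the marker differences in the results was not tested.

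Splicing regulators carried peaks more often than the average gene, in both libraries. A peak lay on 67 of the 96 genes in PBS (69.8%, 95% Clopper-Pearson interval 59.6 to 78.7) and on 61 in lysine (63.5%, 53.1 to 73.1). Over all protein-coding genes the shares were 34.0% and 31.4%. Over 85 other splicing genes, described further below, they were higher than in the family, 77.6% and 76.5%. The intervals cover counting error only. The median gene length was 17324 bp in the family and 17146 bp over all genes. Per kb of gene, peaks covered 12.7 bp in PBS and 9.81 bp in lysine, compared with 3.79 and 3.02 bp over all genes. Covered length counts the bp of a gene's body that lie beneath broad peaks, and genes reaching 500 bp are termed marked. By this count 29 genes were marked in PBS and 22 in lysine (30.2% and 22.9%, against 11.4% and 9.02% of all genes), and 17 in both (6.23% of all genes).

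As a list, the splicing regulators differed between the libraries about as much as other genes did. Their covered length summed to 50.98 kb in PBS and 39.32 kb in lysine, a ratio of 0.771, compared with 0.796 over all protein-coding genes. Without Mbnl1, which had the largest difference, the ratio was 0.819. Of the 71 genes with a peak in either library, 39 were shorter in lysine (54.9%, against 58.2% of such genes in general) and 32 longer (45.1%, against 41.5%). Subtracting PBS from lysine, the median gene of the family differed by -40 bp, with quartiles of -252 and 64, and the median of all 8472 genes with a peak by -38 bp. Losses of at least 500 bp were found in 10 of the 71 genes and gains of that size in 2, or 14.1% and 2.82%, against 11.0% and 4.72% in general. A peak in both libraries was found on 57 of the 71 genes (80.3%, against 69.0%), in PBS alone on 10 (18.9% in general) and in lysine alone on 4 (12.1%).

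The classes differed from one another. The hnRNP genes reached 18.5 kb in the PBS library and 18.6 kb in lysine (ratio 1.00). The Rbm genes had 10.45 and 10.01 kb (0.957), the SR genes 5.455 and 4.551 kb (0.834), Ptbp 1.323 and 1.061 kb (0.802), and SF3 and U2AF 5.501 and 3.212 kb (0.584). The Mbnl genes had 6.742 and 1.898 kb (0.282), and Celf and Esrp 1.257 and 1.743 kb in PBS and 0 in lysine. Whether the classes differ beyond what replicate libraries would show could not be tested. The hnRNP ratio stayed between 0.961 and 1.04 under the alternative treatments of the peaks. It is taken over summed lengths, so opposite differences of single genes can cancel. At a −log10 q minimum of 5 (ratio 0.974), lysine kept 1693 bp on Hnrnpu and 464 bp on Hnrnpf, where PBS kept 0. Conversely, PBS kept 1668 bp on Hnrnpul1 and 1216 bp on Hnrnpa2b1, where lysine kept 0. The values of Hnrnph1 and Hnrnpab did not change there, and those of Hnrnpl were 2725 and 2656 bp. The Rbm ratio turned to 1.18 with a −log10 q minimum of 2 and to 1.2 with equal numbers of peaks.

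**Figure D1:**
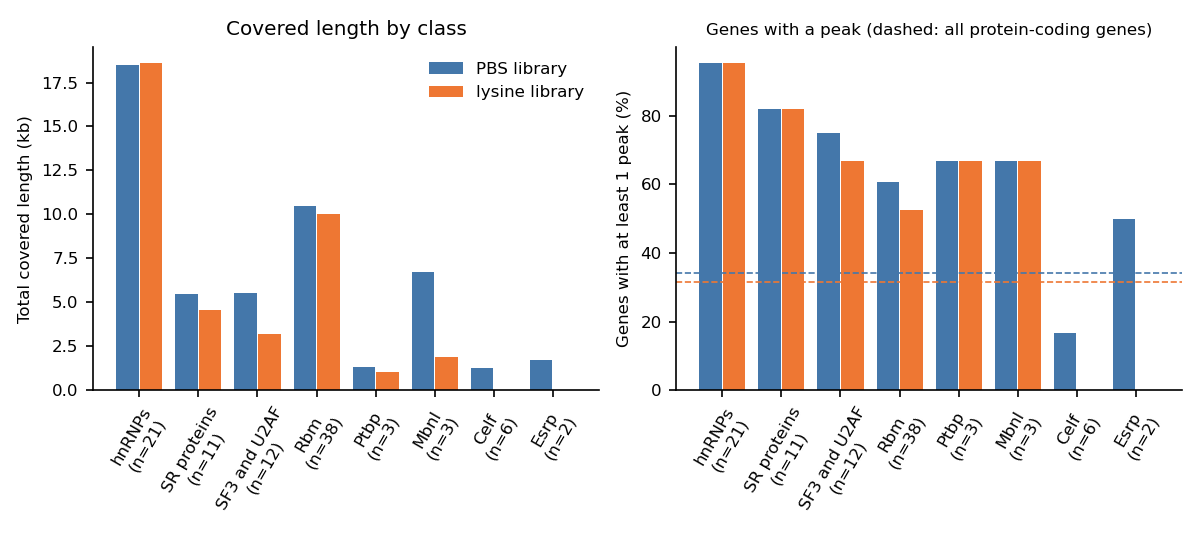
Total covered length (kb, left) and share of genes with at least 1 broad peak (%, right) of each class of splicing regulators in the PBS (blue) and lysine (orange) library, 1 library each. The hnRNP bars stand level at 18.5 and 18.6 kb, the Mbnl bars at 6.742 and 1.898 kb, and the dashed lines mark the 34.0% and 31.4% of all protein-coding genes with a peak.

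The hnRNP genes were the most regularly covered class. A peak lay on 20 of 21 in each library, and they were the same 20. The exception, Hnrnpa1l2-ps2, is listed by RefSeq as protein-coding under a symbol with a pseudogene suffix. Copies of hnRNP genes such as Hnrnpa1 exist in the genome, and how reads shared with them were assigned is not stated, so their values are uncertain. At least 500 bp were covered in 11 of these genes in PBS and 12 in lysine, and the 11 were all among the 12. Of the 20, 9 had less covered length in lysine and 11 had more, and the median difference was 10 bp.

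Hnrnpl, whose protein binds CA-rich RNA and regulates exons of the leukocyte phosphatase Ptprc, had the most covered length of the class, 2725 bp in PBS and 2966 bp in lysine. Nearly all of it was a single wide peak per library, chr7:28808871-28811595 in PBS and chr7:28808937-28811592 in lysine, with the lysine peak entirely inside the PBS one. The lysine library had 1 further peak of 310 bp near the other end of the gene, at a −log10 q of 1.97, and without it Hnrnpl was shorter in lysine by 69 bp. Hnrnpf, a binder of G runs, had 2005 bp in PBS and 2265 bp in lysine. Its main peak lay at chr6:117906658-117907962 in PBS and chr6:117906249-117908049 in lysine and overlapped 4933440N22Rik, and without the shared stretch the gene had 700 and 464 bp. Hnrnph1, the close relative of Hnrnpf, had 1427 and 1417 bp in 1 peak per library, at chr11:50377315-50378741 and chr11:50377263-50378679. Hnrnpu, a nuclear scaffold protein, had 1667 and 1693 bp (chr1:178336380-178338046 in PBS), and Hnrnpul1, its relative, 1668 and 1592 bp (chr7:25754601-25756346 in PBS). In these 5 genes the main peaks of the libraries shared most of their length, for example 1365 bp in Hnrnph1 and 2656 bp in Hnrnpl.

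The promoter windows of the 5 hnRNP genes with the most covered length and a peak over the window in either library are shown. Each holds 250 bases before and 50 after a listed start, from RefSeq on GRCm38.p6. Capitals mark matches, on either strand, to the motifs of ETS factors (CCGGAAG), NRF1 (GCGC, then A and any base, then GCGC) and YY1 (GCCATNTT), the CCAAT box (CCAAT), the TATA box (TATAAA) and the E-box (CACGTG). Matches that overlap run together, and a match is a run of letters and not a shown binding site.
Hnrnpl (chr7:28810640-28810939, plus strand): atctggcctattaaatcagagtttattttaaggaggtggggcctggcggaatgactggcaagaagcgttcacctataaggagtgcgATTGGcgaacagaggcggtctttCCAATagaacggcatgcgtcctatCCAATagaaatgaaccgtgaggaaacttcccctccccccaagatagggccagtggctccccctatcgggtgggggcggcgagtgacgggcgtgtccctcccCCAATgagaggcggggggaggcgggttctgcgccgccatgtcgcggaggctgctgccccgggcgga
Hnrnpf (chr6:117906532-117906831, plus strand): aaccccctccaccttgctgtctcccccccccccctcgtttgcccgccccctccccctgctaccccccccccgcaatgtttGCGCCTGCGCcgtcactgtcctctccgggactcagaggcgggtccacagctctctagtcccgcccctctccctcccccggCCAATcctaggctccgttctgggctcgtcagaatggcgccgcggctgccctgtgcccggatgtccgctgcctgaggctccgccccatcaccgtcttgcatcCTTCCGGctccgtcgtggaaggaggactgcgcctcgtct
Hnrnpu (chr1:178337766-178338065, minus strand): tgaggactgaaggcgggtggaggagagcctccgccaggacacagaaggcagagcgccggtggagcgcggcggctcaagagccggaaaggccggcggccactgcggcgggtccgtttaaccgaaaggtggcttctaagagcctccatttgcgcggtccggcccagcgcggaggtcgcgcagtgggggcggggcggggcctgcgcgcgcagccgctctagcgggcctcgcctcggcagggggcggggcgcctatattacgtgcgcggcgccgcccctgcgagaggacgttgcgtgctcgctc
Hnrnpul1 (chr7:25754710-25755009, minus strand): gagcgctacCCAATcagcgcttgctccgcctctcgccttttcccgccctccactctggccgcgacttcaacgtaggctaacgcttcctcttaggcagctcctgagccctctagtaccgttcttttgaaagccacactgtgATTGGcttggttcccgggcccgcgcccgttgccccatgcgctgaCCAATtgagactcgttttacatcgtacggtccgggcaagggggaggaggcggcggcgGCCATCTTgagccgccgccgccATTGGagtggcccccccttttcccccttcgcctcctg
Hnrnph1 (chr11:50377428-50377727, plus strand): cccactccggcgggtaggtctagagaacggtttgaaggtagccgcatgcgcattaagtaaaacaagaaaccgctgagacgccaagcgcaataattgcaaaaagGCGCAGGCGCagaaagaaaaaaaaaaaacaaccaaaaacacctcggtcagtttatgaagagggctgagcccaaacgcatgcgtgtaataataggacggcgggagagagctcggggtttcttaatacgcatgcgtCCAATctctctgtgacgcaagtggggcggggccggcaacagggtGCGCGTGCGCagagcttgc

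All 300 bases lay under a peak in both libraries for Hnrnpl, Hnrnpul1 and Hnrnph1, and 174 and 300 bases in PBS and lysine for Hnrnpf, and 281 and 153 for Hnrnpu. In all 5 genes the start shown lies inside the gene as RefSeq draws it from end to end. In the drawings of peaks along genes the main peaks of Hnrnpl, Hnrnpf, Hnrnpu and Hnrnph1 therefore begin downstream of the 5' end, while that of Hnrnpul1 spans it.

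Hnrnpa2b1, which binds exon silencers and transported mRNAs, had 1216 bp in PBS and 1480 bp in lysine, in a peak that reached over its neighbour Cbx3. By −log10 q the lysine peak stood at percentile 36.3 of its list and the PBS peak at percentile 69.9. Counting only peaks that reach 5, it had 1216 bp in PBS and 0 in lysine, and by narrow blocks 1216 and 357 bp. Hnrnpab had the largest gain of the class, from 216 to 752 bp. Its PBS peak of 431 bp at chr11:51606666-51607096 lay wholly under the lysine peak of 1083 bp at chr11:51606130-51607212, and by narrow blocks the gene had 216 and 180 bp. Hnrnpdl (1260 and 1490 bp) and Hnrnpul2 (803 and 1013 bp) were longer in lysine. Hnrnpk, a binder of C-rich RNA (1077 and 788 bp), Hnrnpa1 (964 and 590 bp), another protein of exon silencers, and Hnrnpa3 (958 and 796 bp) were shorter.

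The remaining hnRNP genes had between 65 and 483 bp in PBS and between 111 and 447 bp in lysine. Among them were Hnrnpc and Hnrnpr, whose start sites held the 2 peaks of highest fold enrichment on any splicing regulator in the PBS list. The fold of a peak is the authors' value and ranks it within its list only. Hnrnpc, which binds U-rich RNA and keeps cryptic exons out of mRNAs, had a peak of fold 17.5 in PBS and 12.2 in lysine, the highest among splicing regulators in each list. That peak also lay over Rpgrip1. Hnrnpr followed in PBS with 12.2. Next in PBS came Srsf1 (10.7), and in the lysine list Rbm4 (10.9) and Sf3b2 (9.55) stood behind Hnrnpc. Each of these peaks was overlapped by a peak of the other list, and each was only 512 to 690 bp wide.

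**Figure D2:**
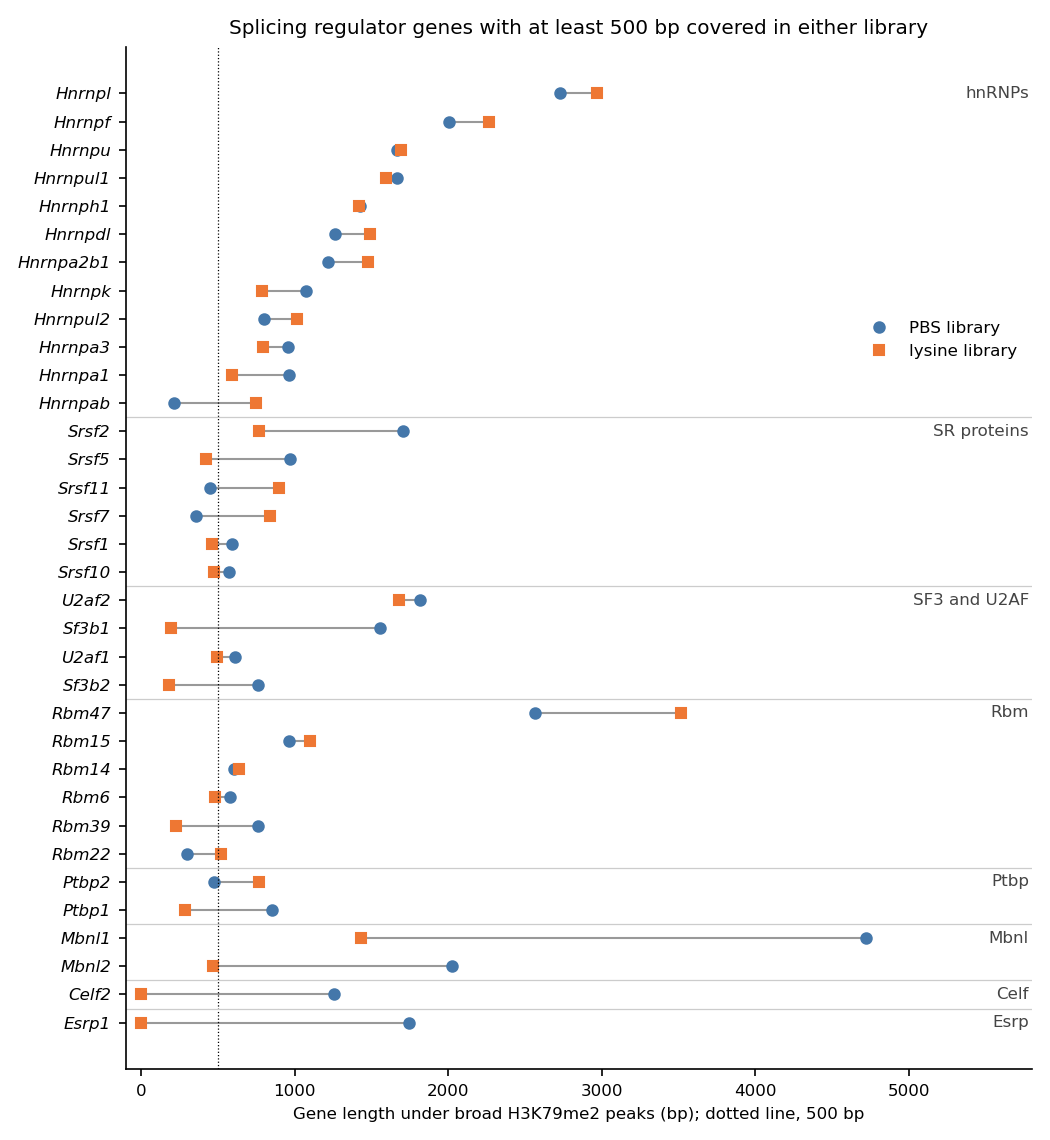
Covered length (bp) of the 34 splicing regulator genes with at least 500 bp in either library, grouped by class, with a circle for the PBS library and a square for the lysine library. Among the hnRNP pairs Hnrnpl reaches 2725 and 2966 bp and Hnrnpab has the widest gap, 216 and 752 bp, whereas Mbnl1 spans from 1431 bp in lysine to 4720 bp in PBS and Celf2 and Esrp1 are at 0 in lysine.

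Peaks lay on 9 of the 11 SR protein genes in each library, and 6 were shorter in lysine and 4 longer. Srsf2, a binder of exonic enhancers that is often mutated in myelodysplastic syndromes, had 1706 bp in PBS and 770 bp in lysine. Both libraries had a peak at its start, chr11:116852720-116853866 in PBS and chr11:116852906-116853924 in lysine, which also lies over Mfsd11. The difference came mainly from a further PBS peak of 750 bp towards the 3' end, whose −log10 q was 1.82. Without peaks below 2 the gene had 956 and 770 bp. Without stretches shared with another gene it had 750 bp in PBS and 0 in lysine. Srsf5 had 971 and 425 bp, Srsf1 592 and 460 bp, and Srsf10, a splicing repressor when dephosphorylated, 572 and 475 bp. Srsf7 went the other way, from 357 bp in PBS to 837 bp. Its PBS peak of 628 bp, chr17:80207013-80207640, lay inside a lysine peak of 1114 bp, chr17:80206533-80207646, that also lay over Gemin6. Srsf7 was longer in lysine under every alternative run. With −log10 q of 3.71 in PBS and 5.34 in lysine, both peaks passed the minimum of 2, which therefore could not change the difference. Nor could leaving out shared stretches, since Srsf7 overlaps no other protein-coding gene. At the minimum of 5 only the lysine peak was left (0 and 837 bp). Srsf11 had 447 and 896 bp, with a lysine peak over its upstream listed start and over Lrrc40 that had no PBS counterpart. Srsf4 had a peak in lysine alone (259 bp). Srsf6 had 182 bp in PBS and 0 in lysine, although 420 bp of its PBS peak lay under a lysine peak that ended upstream of the gene. Srsf3 had 426 and 202 bp and Srsf9 202 and 227 bp. Srsf12 had no peak.

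Of the 12 SF3 and U2AF genes 8 had less than 500 bp covered in each library. A peak lay on 9 of 12 in PBS and 8 in lysine, 7 were shorter in lysine and 3 longer. Sf3b1, the SF3B subunit that clamps the branch point, had 1555 bp in PBS and 198 bp in lysine. The PBS peak spanned chr1:55025947-55027723 and the lysine peak chr1:55027304-55027708, so the lysine peak took only the 405 bp around the start. By narrow blocks Sf3b1 had 241 and 198 bp. The wide PBS peak had a −log10 q of 3.38, and without peaks below 5 the gene had 0 and 198 bp. Sf3b2 had 764 and 183 bp. A PBS peak at the far end of Sf3b2 that ran on towards Pacs1 (chr19:5273023-5274411, −log10 q of 1.69) made up most of the gap, although 316 bp of it, outside the gene, lay under a lysine peak. The peaks at the start were alike, chr19:5295185-5295763 and chr19:5295275-5295786. U2af2, the large U2AF subunit that binds the polypyrimidine tract, had 1814 bp in PBS (chr7:5060978-5062791) and 1682 bp in lysine. By narrow blocks U2af2 had 1330 and 533 bp. Its wide lysine peak had a −log10 q of 3.31, and without peaks below 5 the gene had 1814 and 6 bp. U2af1, the small subunit that reads the AG, had 615 and 496 bp. Sf3a3 (157 bp) and Sf3b3 (103 bp) had a peak in PBS alone and Sf3b4 (146 bp) in lysine alone. Sf3a1 and Sf3b6 had none.

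**Figure D3:**
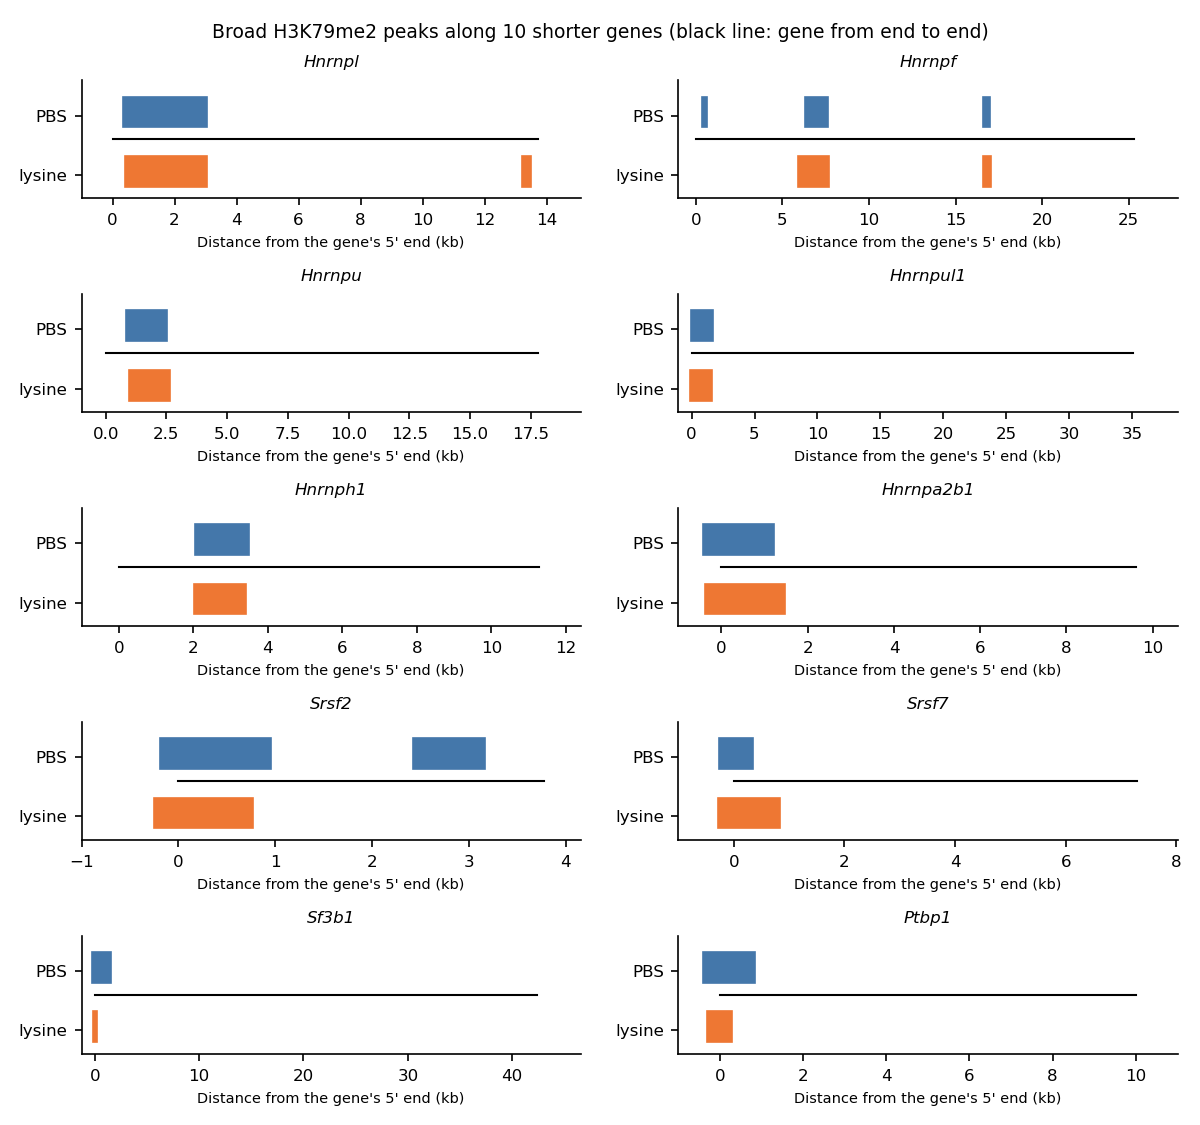
Broad peaks along 10 shorter splicing regulator genes by distance from the 5' end (kb), with PBS peaks above and lysine peaks below the line that stands for the gene. The main peaks of the 6 hnRNP genes overlap between the libraries, with 1 further lysine peak on Hnrnpl and 1 further PBS peak on Hnrnpf, while the lysine peak of Sf3b1 is 405 bp wide against 1777 bp in PBS and that of Srsf7 1114 bp against 628 bp.

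Mbnl1 had the largest shortfall in lysine of all 96 genes, and Mbnl2 followed after Esrp1. Muscleblind-like proteins bind motifs built on GC and drive the change from fetal to adult splicing patterns. Mbnl1 (chr3:60472559-60629750) had 4720 bp in PBS, in 10 peaks, and 1431 bp in lysine, in 3 peaks. All 3 lysine peaks overlapped a PBS peak, at the start and from 55431 and 116990 bp in. The 7 PBS peaks without a lysine partner lay between 27730 and 145676 bp from the 5' end, and 6 of them were 280 to 545 bp wide. The widest, 1260 bp at chr3:60500289-60501548, lay over the downstream of the 2 start sites RefSeq lists for Mbnl1. The PBS peaks of Mbnl1 had −log10 q between 1.80 and 4.38, and 2 of them, both without a lysine partner, stood above the median of the PBS list, at percentiles 52.6 and 55.4. With equal numbers of peaks in both lists the gene had 1868 and 1431 bp, and no peak on it reached 5 in either library. Mbnl2 (chr14:120275652-120431698) had 2022 bp in PBS and 467 bp in lysine. Both libraries had a peak at its start, and from 49982 bp into the gene a PBS peak of 1958 bp (chr14:120325634-120327591) stood opposite a lysine peak of 406 bp (chr14:120327171-120327576). By narrow blocks Mbnl2 had 674 and 467 bp. Mbnl3 had no peak.

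The upstream window of Mbnl1 was chosen by covered length, as for the hnRNP genes. The downstream one was added after its values were seen, because the libraries differ there. That of Mbnl3 is shown as a relative without a peak.
Mbnl1, upstream start (chr3:60472580-60472879, plus strand): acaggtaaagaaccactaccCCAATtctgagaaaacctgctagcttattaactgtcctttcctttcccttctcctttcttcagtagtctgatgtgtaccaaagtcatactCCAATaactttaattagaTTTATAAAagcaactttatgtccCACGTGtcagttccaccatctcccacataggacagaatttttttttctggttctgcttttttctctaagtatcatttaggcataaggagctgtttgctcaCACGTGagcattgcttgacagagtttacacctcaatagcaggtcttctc
Mbnl1, downstream start (chr3:60500929-60501228, plus strand): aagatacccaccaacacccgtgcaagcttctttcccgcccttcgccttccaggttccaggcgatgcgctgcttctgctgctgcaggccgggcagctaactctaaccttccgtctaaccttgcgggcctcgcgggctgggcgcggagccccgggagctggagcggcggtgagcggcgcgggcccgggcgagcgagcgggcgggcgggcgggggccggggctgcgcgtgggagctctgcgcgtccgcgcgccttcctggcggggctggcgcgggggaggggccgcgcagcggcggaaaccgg
Mbnl3 (chrX:51205941-51206240, minus strand): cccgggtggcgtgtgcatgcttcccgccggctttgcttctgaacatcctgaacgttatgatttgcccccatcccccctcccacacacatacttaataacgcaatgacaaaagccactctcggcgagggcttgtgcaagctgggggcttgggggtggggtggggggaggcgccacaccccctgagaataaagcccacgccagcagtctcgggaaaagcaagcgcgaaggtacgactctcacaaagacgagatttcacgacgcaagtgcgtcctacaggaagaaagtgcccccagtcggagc

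The upstream window of Mbnl1 lay wholly under a peak in both libraries and has 2 CG pairs and 39.3% G and C. The downstream window lay wholly under a PBS peak and under no lysine peak, and has 41 CG pairs, 75.0% G and C and none of the motifs searched. That PBS peak stood at a −log10 q of 2.11. Whether the downstream start carries a weaker signal in lysine cannot be read from called peaks. The Mbnl3 window has 19 CG pairs and none of the motifs.

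**Figure D4:**
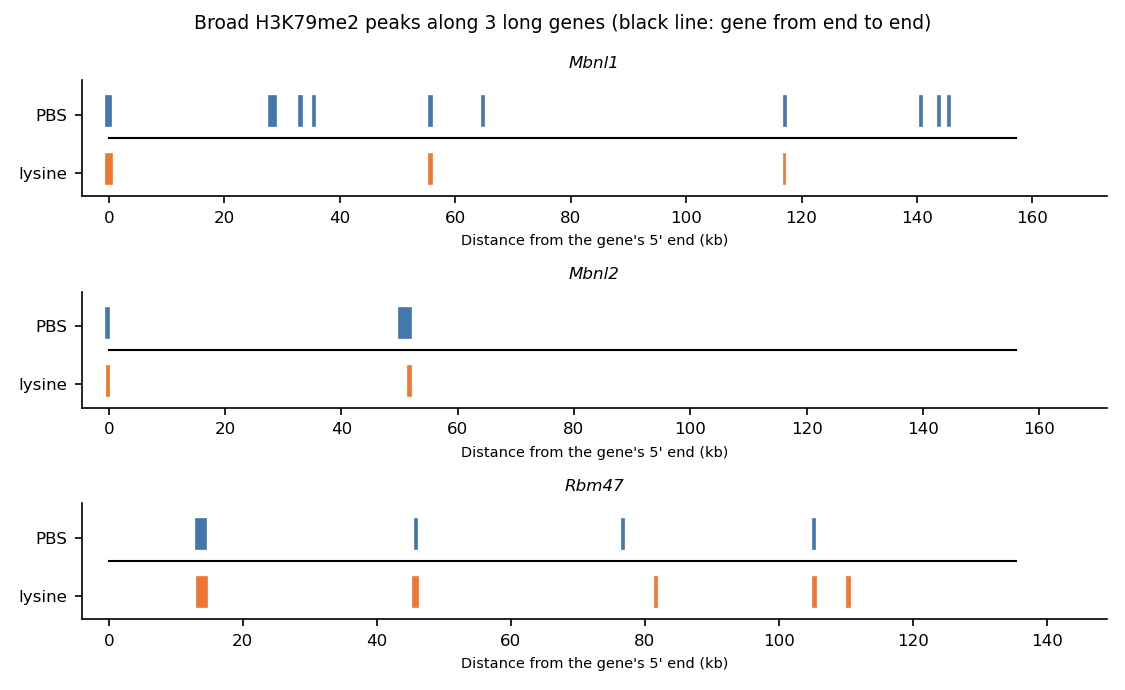
Broad peaks along Mbnl1, Mbnl2 and Rbm47 by distance from the 5' end of the gene (kb), with PBS peaks above and lysine peaks below the line that stands for the gene. Mbnl1 has 10 PBS and 3 lysine peaks, Mbnl2 2 and 2, and Rbm47 4 and 5.

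Celf proteins bind UG-rich RNA and often act on the same exons as Mbnl proteins in the opposite direction. Celf2 alone of the 6 had a peak, with 1257 bp in 3 PBS peaks and 0 bp in lysine. The 3 peaks lay 1759, 7803 and 21085 bp from the nearest of the 5 start sites listed for Celf2 and over none of them. Esrp1 and Esrp2 are known as splicing regulators of epithelial cells. Esrp1 had 1743 bp in PBS, a single peak at chr4:11366799-11368541, and no peak in lysine, and Esrp2 had none in either library. The Esrp1 peak was in the weaker part of its list (−log10 q of 2.16, percentile 12.9), and it was no longer in the PBS list when that was held to the number of lysine peaks. Epithelial marker genes were without a peak in 5 of 6 cases, and the sixth, Cdh1, had 1527 and 1255 bp. Their part in the Esrp1 value was not tested. Celf1, Celf3, Celf4, Celf5 and Celf6 had no peak.

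Ptbp1, the polypyrimidine tract binder of most non-neuronal cells, had 850 bp in PBS and 290 bp in lysine. Its peaks were among the stronger of each list, chr10:79854027-79855281 in PBS (percentile 86.4 by −log10 q) and chr10:79854127-79854721 in lysine (percentile 98.1), and the lysine peak lay wholly inside the PBS one. The difference of -560 bp was the same under every alternative run. With −log10 q of 8.59 in PBS and 17.12 in lysine, both peaks passed the minimum values, which therefore could not change it. Ptbp2, the paralogue best known from neurons, had 473 and 771 bp in weak peaks just downstream of its listed start, and by narrow blocks 473 and 0 bp. Ptbp3 had no peak.

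Rbm genes were more mixed: 23 of 38 carried a PBS peak and 20 a lysine peak, 5 and 4 were marked, and 12 were shorter in lysine and 13 longer. Rbm47, a partner of the Apobec1 RNA editing enzyme, had 2565 bp in PBS and 3513 bp in lysine, the largest gain of all 96 genes. Its widest peaks coincided, chr5:66137373-66138926 in PBS and chr5:66137309-66138836 in lysine, 12052 and 12142 bp from the nearest of its 3 listed start sites. Another shared peak, 7789 bp from a start in PBS, was 364 bp wide in PBS and 863 bp in lysine, and 2 further lysine peaks and 1 PBS peak had no partner. All were weak, with −log10 q from 1.53 to 3.37, and none reached 5. Counting peaks of 2 or more, the gene had 1011 and 3513 bp. Rbm15, an adaptor of the m6A RNA methyltransferase, had 964 and 1100 bp, and Rbm14, a paraspeckle protein, 608 and 637 bp. Rbm6 had 580 and 484 bp, Rbm39, a relative of U2af2, 759 and 227 bp, and Rbm22, a protein of the active spliceosome, 297 and 524 bp. Rbm7, of a complex that hands nuclear RNA to the exosome, had 0 and 287 bp, and Rbm28 0 and 216 bp. In PBS alone were Rbm33 (459 bp), Rbm43 (357 bp), Rbm38 (280 bp), Rbm12b2 (143 bp) and Rbm17 (117 bp). The other Rbm genes with a peak had 36 to 436 bp in PBS and 92 to 464 bp in lysine. Rbm4, Rbm4b and Rbm14 overlap Gm21992, to which covered length shared with it also belongs. Among the 13 Rbm genes without a peak were Rbm24 and Rbm46, known from muscle and germ cells, and Rbm3, a cold-shock protein.

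Peaks of splicing regulators had higher median widths than the whole lists. The 87 PBS peaks were 579 bp wide in the median, against 456 bp over the whole list, and 25 (28.7%) spanned 1 kb or more, against 9.89%. In lysine 72 peaks had a median of 556 bp against 450 bp, and 18 (25.0%, against 8.52%) spanned 1 kb. Peaks on hnRNP genes made up most of these, with 14 and 11 peaks of 1 kb or more. Of the Rbm peaks 7.69% in PBS and 8.33% in lysine were that wide. Of the PBS peaks 65 (74.7%, interval 64.3 to 83.4) were overlapped by a lysine peak, compared with 61.9% of all PBS peaks. Of the lysine peaks 64 (88.9%, 79.3 to 95.1) were overlapped by a PBS peak, compared with 75.3%. On hnRNP genes these numbers were 21 of 23 and 21 of 22.

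For 79 of the 96 genes the strand and start sites were taken from RefSeq promoter windows, and for 17 they were not. On these 79 genes 52 of 77 PBS peaks and 48 of 62 lysine peaks contained a listed start site (67.5% and 77.4%). Over 17492 protein-coding genes counted the same way these shares were 59.0% and 64.8%. Peaks over a start reached a median of 366 bp before it and 255 bp after it in PBS, and 356 and 214 bp in lysine. Over all protein-coding genes these medians were 311 and 194 bp in PBS and 303 and 188 bp in lysine. They came from 5055 and 4729 pairs, against 4597 and 4328 pairs of gene and peak behind the shares above. They were thus counted in another way. The median reach before the start thus exceeded that after it, whereas the mark is typically described downstream of it. The first 1 kb of these genes held 21.7 kb of covered length in PBS and 17.5 kb with lysine (ratio 0.809, against 0.899 over all genes). The second kb had a ratio of 0.962 (0.794), the next 3 kb 0.940 (0.772), and the 5 kb after those 1.30 (0.759). Further in, the ratio was 0.486 (0.668), and 0.672 without Mbnl1. The hnRNP genes had ratios of 0.906, 1.03, 1.05, 1.38 and 1.08 in these 5 intervals. The 60 other genes had 0.746, 0.842, 0.656, 0.684 and 0.446. Between 2 and 5 kb the hnRNP genes held 2989 of 4116 bp in PBS and 3130 of 3869 bp in lysine. Between 5 and 10 kb the family had 1482 bp in PBS and 1922 bp in lysine. Hnrnpf alone held 1305 and 1801 bp of this, in 1 peak per library that overlaps 4933440N22Rik. The ratios of 1.30 and 1.38 therefore rest mainly on that gene. PBS peaks more than 10 kb from a start site were 13, on Celf2, Hnrnpc, Mbnl1, Mbnl2, Rbm47 and Sf3b2, and lysine peaks were 8, on Hnrnpl, Mbnl1, Mbnl2 and Rbm47.

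Over the 79 genes with a window, taking the first listed, the median number of CG pairs was 24, against 13 over 17492 protein-coding genes. A peak lay over 62.0% of these windows in PBS and 58.2% in lysine, compared with 27.1% and 25.6%. The YY1 motif was found in 15 of the 79 (6.69% of all windows), the ETS motif in 20.3% (11.9%), the CCAAT box in 45.6% (39.0%), the TATA box in 17.7% (13.3%), the E-box in 11.4% (7.90%) and the NRF1 motif in 7.59% (6.60%). Among the 19 hnRNP windows 13 held a CCAAT box (68.4%). The E-box was found in 21.1% of them, the YY1 motif and the TATA box in 15.8% each. The ETS motif was found in 2 of the 19 (10.5%) and the NRF1 motif in 1 (5.26%), close to the shares over all windows.

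**Figure D5:**
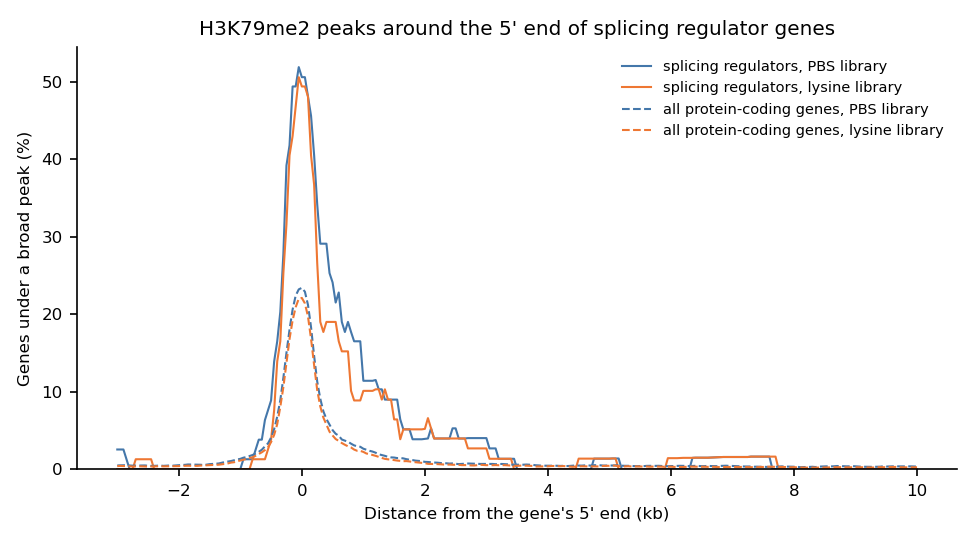
Share of genes (%) under a broad peak at each distance from the 5' end of the gene (kb, every 50 bp), for 79 splicing regulators (solid) and 17492 protein-coding genes (dashed) in the PBS (blue) and lysine (orange) library. The highest values are 51.9% and 50.6% for splicing regulators and 23.4% and 22.1% for all genes, and only genes long enough count at each distance.

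Other splicing genes, taken from a list of 85 genes outside the family, had less covered length in lysine at a ratio close to that of all genes. A peak lay on 66 in PBS and 65 in lysine (77.6% and 76.5%, against 69.8% and 63.5% of the family). Of the 85, 25 and 14 were marked (29.4% and 16.5%, against 30.2% and 22.9%), and 31.19 and 25.15 kb were covered (0.806). Per kb of gene this was 5.68 and 4.58 bp, against 12.7 and 9.81 bp in the family. Shorter in lysine were 46 and longer 28. Among 31 genes of the core spliceosome 22 were shorter and 7 longer (8.329 and 6.810 kb). Among 15 SR-related proteins and SR kinases the numbers were 10 and 5 (9.065 and 7.044 kb), and among 39 other RNA-binding regulators 14 and 16 (13.8 and 11.3 kb). Syncrip, an hnRNP by function that the symbol does not show, had 1452 and 8 bp, and Sfpq, a paraspeckle protein, 2453 and 1512 bp. Tial1, a regulator of U-rich introns, had 412 and 1290 bp and Dhx15, a helicase that takes spliceosomes apart, 140 and 954 bp. These 4 were chosen after their values were seen, as the 2 largest differences in each direction.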

How the data were processed

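Broad and gapped H3K79me2 peak lists of BMDCs given PBS or lysine, 1 of each per condition, were analysed, and samples were grouped by title. Per the submitters' processing notes the tools were Bowtie2 2.3.4.1, ChIPseeker, cutadapt 1.18, FastQC, MACS2 2.1.2, Picard and Trimmomatic 0.38, with build GRCm38 and no roles stated. The authors deposited 1 peak list of each kind per sample. Peak thresholds, and whether inputs were used, are not given in these sources. The files lack headers and were read by the MACS2 layout. The deposited fold is a linear ratio of signal to local background, as a mean along the peak. Also deposited were −log10 p and −log10 q (lowest −log10 q 1.37 in PBS and 1.32 in lysine) and a score of 10 times −log10 q without decimals. These values, and covered length itself, depend on depth, which is unknown, so they only describe or filter peaks within a list.

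Genes were matched to RefSeq GRCm38.p6. Of the 96 genes 26 overlap at least 1 further protein-coding gene, which then shares covered length. Start sites came from RefSeq promoter windows. Peaks overlapped if 1 bp was shared. Named genes are all with at least 500 bp in either library, and, in the smaller classes, those without a peak. Other genes named were chosen after their values were seen. Described in full are the 8 with the most covered length, the 8 largest differences in each direction, and the 3 peaks of highest fold per list. The genes, lists and rules were chosen with earlier results of these data known. Alternatives were a −log10 q minimum of 2 or 5, equal numbers of peaks (the PBS list reduced by −log10 q), narrow blocks of the gapped lists without blocks of 1 bp, shared stretches left out, 250 or 1000 bp as the minimum of a marked gene, and an overlap of 50% of the peak. Class ratios under these were added after seeing the data. The software was matplotlib 3.10.9, pandas 2.3.3, scipy 1.17.1 and numpy 2.4.6 under Python 3.11.15. Covered length was checked against bedtools 2.31.1, with 0 differences.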

Additional observations from a re-analysis of the deposited data

How the results depend on the processing

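No read counts were given, so depth limits every value in an unknown way, and no paired analysis was possible because each condition has 1 library. Of the 21 genes described in full, 11 were shorter in lysine and 10 longer. Under 5 alternatives each, 4 of the 11 and 2 of the 10 kept their direction throughout, 3 and 5 turned under some, and 4 and 3 turned under none but showed no difference under some. The cause was not tested. By narrow blocks the differences turned at Hnrnpa2b1 (-859 bp), Hnrnpab (-36 bp), Ptbp2 (-473 bp), Hnrnph1 (221 bp) and Hnrnpul1 (335 bp). With a −log10 q minimum of 5 they turned at Hnrnpa2b1 (-1216 bp), Hnrnpl (-69 bp, also with 2) and Sf3b1 (198 bp), and without shared stretches at Hnrnpf (-236 bp).

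The lysine to PBS ratio is given in the order minimum −log10 q of 2, minimum of 5, equal numbers of peaks, narrow blocks and without shared stretches. It was 0.843, 0.821, 0.954, 0.827 and 0.738 over the splicing regulators, 1.004, 0.974, 1.04, 0.961 and 0.973 over hnRNPs, and 0.967, 0.684, 0.967, 0.967 and 0.840 over SR genes. It was 0.662, 0.387, 0.662, 0.642 and 0.579 over SF3 and U2AF, and 1.18, 0.856, 1.2, 0.996 and 0.980 over Rbm genes. Over all protein-coding genes the first 4 were 0.771, 0.738, 0.95 and 0.811, each below the hnRNP value. With a −log10 q minimum of 5, 42 of the 96 genes had a PBS peak and 42 a lysine peak, against 17.0% and 14.3% of all protein-coding genes. At that minimum 20 were marked in PBS, 13 in lysine and 10 in both. With equal numbers of peaks 62 had a PBS peak and 61 a lysine peak, against 30.4% and 31.4% of all protein-coding genes. With 250 bp as the minimum 49 genes were marked in PBS, 40 in lysine and 35 in both, and with 1000 bp 16, 12 and 10. With equal numbers of peaks 84.3% of the PBS peaks on these genes had a lysine partner. Under these alternatives the marked counts and the partner share were not computed over all genes or whole lists. Counts of genes shorter or longer in lysine stayed within 1.5 times their value under all 5 treatments of the peaks.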
